A study of Mus musculus with 12 samples.

Results

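Kidneys of FAN1KO mice given cisplatin were compared with kidneys of FAN1KO mice given saline, 3 mice in each group, so that the comparison rested on 6 of the 12 libraries of the series and on the 14972 genes, of 27179 listed, with at least 1 TPM in at least 3 of the 12 libraries. TPM is the share of a library's transcripts that a gene takes, from reads divided by transcript length and scaled to 1 fixed total. FAN1KO mice, labelled γGT1-Cre;Fan1-/-, carried Ggt1-Cre, a transgene that deletes Fan1 in proximal tubule cells and leaves it in the other cells of the kidney. They were males and females aged 8 to 12 weeks on a mixed background, backcrossed towards 129Sv-Elite per the study's methods. Cisplatin mice received 2 mg/kg intraperitoneally once a week for 5 weeks, and saline mice received saline. The other 6 libraries came from mice labelled wild-type, 3 given saline and 3 given the same cisplatin course, and they entered the fit so that the 4 groups shared 1 estimate of the spread. RNA was taken from whole kidneys, so fewer cells of a type and less RNA per cell cannot be told apart in any value below.

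FAN1 is a nuclease that takes part in the repair of DNA interstrand crosslinks, and cisplatin makes such crosslinks. Cells that carry unrepaired crosslinks stabilize p53, a transcription factor that switches on genes of cell cycle arrest, repair and apoptosis. The proximal tubule takes cisplatin up from the blood, reabsorbs most of the filtered solutes, and draws its energy from fatty acid oxidation in densely packed mitochondria. Injured proximal tubule cells are known to lose transporters and metabolic enzymes and to express proteins such as KIM-1 (Havcr1) and NGAL (Lcn2), which serve as urinary markers of tubule injury.

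Fan1 RNA (chr7:64345385-64374128, GRCm38.p6) stood at 1.17, 1.54 and 2.28 TPM in FAN1KO saline kidneys and at 2.72, 3.51 and 1.55 TPM in FAN1KO cisplatin kidneys. The groups overlapped (adjusted p 0.237), and since the deletion is limited to proximal tubule cells the whole-kidney level did not check the genotype labels. Reads recovered from the TPM numbered 39039893 to 50066266 in these 6 libraries. RNA of Uty, Kdm5d, Eif2s3y and Ddx3y, which are Y-linked, was present in saline replicate 1 and cisplatin replicate 3 and near 0 in the other 4 libraries, so each group held 1 library with it and 2 without it.

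After cisplatin the RNA of the FAN1KO kidney was spread over more genes. Mitochondrially encoded genes took 20.1, 21.7 and 22.2% of all TPM in the saline kidneys and 10.2, 13.7 and 16.7% in the cisplatin kidneys. The 100 highest genes of each library took 47.0, 42.5 and 43.9% in the saline kidneys and 31.2, 34.1 and 37.3% in the cisplatin kidneys, and the number of genes at 1 TPM or more went from 12790, 13943 and 13635 to 15053, 14687 and 14101. No cisplatin kidney overlapped a saline kidney in these 3 quantities, each of which gave an exact two-sided permutation p of 0.1, the smallest that 3 against 3 mice allow.

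TPM sum to the same total in every library, so a smaller share of some RNAs is met by a larger share of the rest. The median log2 difference over all genes tested was 0.37, and 5229 genes were higher (34.9% of all tested) against 733 lower (4.9%) by limma with Benjamini-Hochberg adjustment at 0.05. Median-ratio scaling, which sets the typical gene to no difference, moved that median to −0.01 and gave 2333 genes higher (15.6%) and 2047 lower (13.7%). Below, a gene is said to have risen or fallen only when it passed on both scales, as 2333 genes did upward (15.6%) and 731 downward (4.88%). Differences are of log2(TPM + 1), cisplatin minus saline, with the standard error of the fit, and understate the change of genes under a few TPM. Of the genes tested, 608 reached the TPM minimum only through the cisplatin kidneys of FAN1KO mice and so had to be higher there. Among the other 14364 genes, 2045 rose (14.2%) and 731 fell (5.09%). Groups that did not overlap were common, with every cisplatin kidney above every saline kidney in 47.4% of the genes tested and below in 7.43%. Genes named below as leading rises or falls, of all genes or of a list, were chosen among those without overlap, so that feature was required of them. The number of higher genes on the TPM scale depended on cisplatin replicate 1, without which it was 3140, and on saline replicate 1, without which it was 3489.

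**Figure D1:**
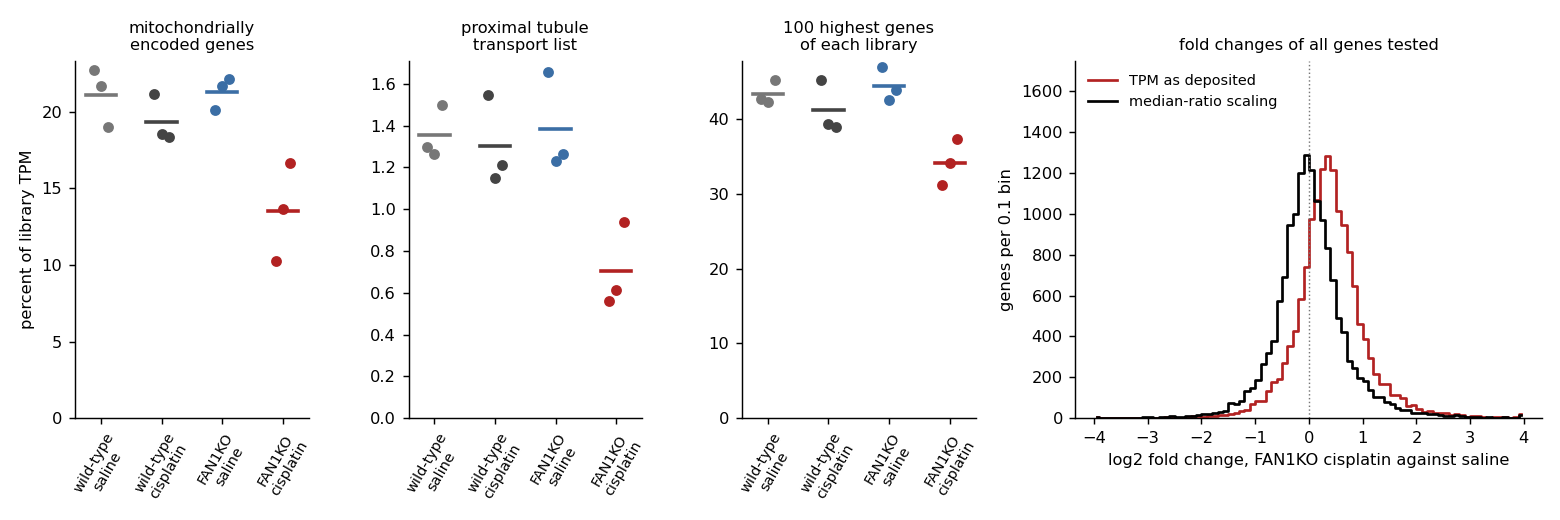
Percent of each library's TPM taken by mitochondrially encoded genes, by the proximal tubule transport list and by the 100 highest genes in all 4 groups (points, 1 per mouse; bars, group means; 3 mice per group), and the number of tested genes in each bin of log2 difference, cisplatin against saline in FAN1KO kidneys, on TPM as deposited and after median-ratio scaling, with values beyond the axis in its end bins. The mitochondrial share was 10.2 to 16.7% in FAN1KO cisplatin kidneys and 20.1 to 22.2% in FAN1KO saline kidneys, and the median difference over genes was 0.37 on the TPM scale and −0.01 after scaling.

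The leading rises were genes of tubule injury, p53 and innate immunity. Lcn2, which encodes the siderophore-binding protein NGAL (chr2:32384637-32387739), stood at 0.401, 1.86 and 0.281 TPM in the saline kidneys and at 517, 349.8 and 265 TPM in the cisplatin kidneys, a log2 difference of 7.72 ± 0.64 (SE, 3 against 3 mice; adjusted p 5.23e-05). Havcr1, the phosphatidylserine receptor KIM-1 (chr11:46739822-46779578), stood at 7.61, 27.8 and 0.972 TPM and then at 373, 243 and 679 TPM (5.65 ± 0.86, adjusted p 0.000961). The saline values of Havcr1 were themselves far apart, yet the lowest cisplatin kidney lay well above the highest saline kidney. The epithelial genes Krt20, a keratin of simple epithelia, and Sprr1a, a cornified envelope precursor, were under 1 TPM in every saline kidney and reached 181, 119 and 55.5 TPM and 183, 77.9 and 61.9 TPM after cisplatin (6.42 ± 0.55 and 6.12 ± 0.53). Krt20 reached the TPM filter only through the cisplatin kidneys of FAN1KO mice and so had to be higher there. S100a6, a calcium-binding protein, rose from 11, 27.8 and 18 TPM to 969.9, 688 and 649 TPM (5.34 ± 0.48). Complement C3 rose from 5, 10.7 and 5.18 TPM to 518, 299 and 431 TPM (5.75 ± 0.52), and the neutrophil chemokine Cxcl1 rose from 4.02, 0.482 and 0.586 TPM to 97.8, 56.5 and 42.8 TPM (4.79 ± 0.63). Aoc1, which oxidizes histamine and polyamines, rose from 0.786, 3.32 and 1.14 TPM to 72.3, 41.3 and 72.7 TPM (4.59 ± 0.42). The other leading rises, Cdkn1a, Phlda3, Psrc1 and Gdf15, belong to the p53 list below.

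The leading falls joined red cell, proximal and distal tubule genes. The α-globin gene Hba-a2 stood at 374, 934 and 1018 TPM in the saline kidneys and at 3.4, 9.89 and 49.3 TPM in the cisplatin kidneys (−5.73 ± 0.85, adjusted p 0.000842), and Hba-a1, Hbb-bs and Hbb-b1 fell by 5.02 to 5.42 on the log2 scale. Globin copies are near-identical, so their counts may have been split between copies. Pvalb, the calcium buffer parvalbumin of the early distal convoluted tubule, fell from 59.1, 198 and 379.5 TPM to 4.55, 12.9 and 16.6 TPM (−3.90 ± 0.63, adjusted p 0.00123). Hpd, a tyrosine breakdown enzyme, fell from 91.3, 759 and 547 TPM to 38.2, 34.9 and 53.1 TPM (−2.99 ± 0.84), with saline replicate 1 far below the other saline kidneys but above all the cisplatin kidneys. Dio1, which activates thyroid hormone, fell from 31.2, 63.4 and 68.7 TPM to 6.58, 8.19 and 6.86 TPM (−2.68 ± 0.54). Dpys, a pyrimidine breakdown enzyme, fell from 9.96, 19.6 and 13 TPM to 1.29, 1.92 and 1.33 TPM (−2.55 ± 0.65). The remaining falls among the 12 largest were Esm1, an endothelial proteoglycan (−2.67 ± 0.74), the cytochrome P450 gene Cyp2d12 (−2.88 ± 0.56), the acetyltransferase family gene Nat8f6 (−2.65 ± 0.50) and 2310081J21Rik (−2.72 ± 0.33). In each of the 12 falls the lowest saline kidney lay above the highest cisplatin kidney, which the choice of these genes required. With 1 library left out at a time, the call of Hpd was lost without saline replicates 2 or 3 or cisplatin replicates 1 or 2 (adjusted p 0.0545 to 0.0583), and that of Esm1 without saline replicates 2 or 3 or cisplatin replicates 2 or 3 (adjusted p 0.0505 to 0.0558).

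**Figure D2:**
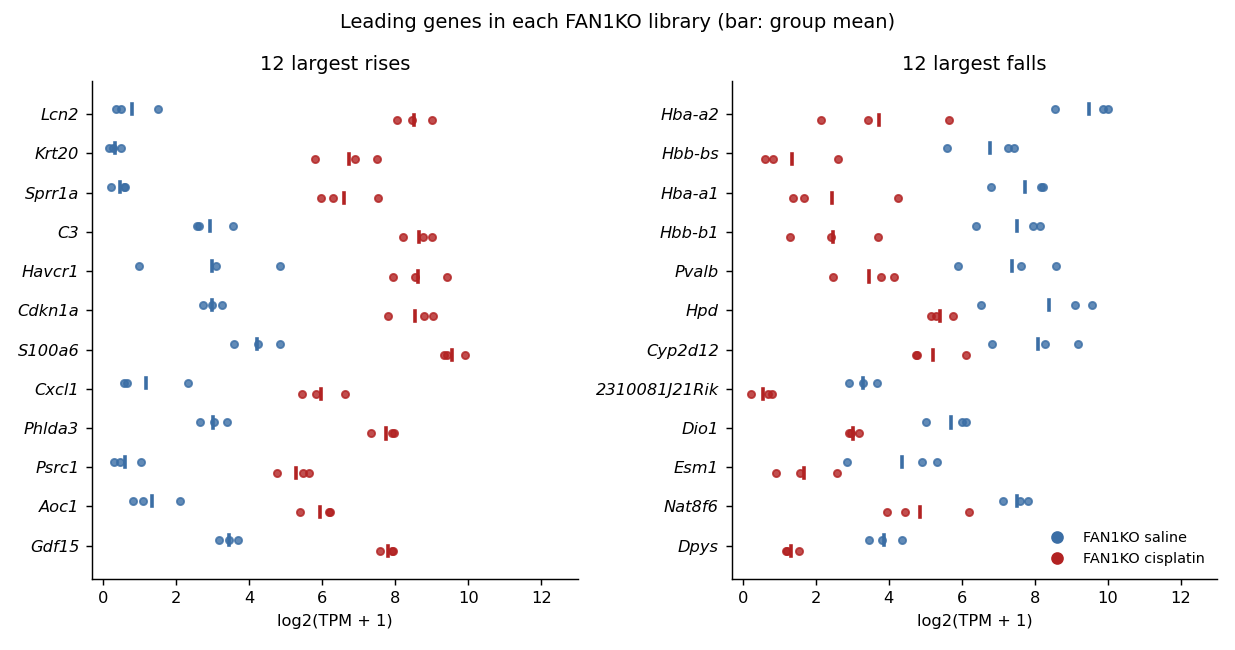
log2(TPM + 1) of the 12 largest rises (left) and 12 largest falls (right) in each FAN1KO kidney given saline or cisplatin (points, 1 per mouse; bars, means of 3 mice). Lcn2 moved from 0.401, 1.86 and 0.281 TPM to 517, 349.8 and 265 TPM, and Pvalb from 59.1, 198 and 379.5 TPM to 4.55, 12.9 and 16.6 TPM.

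Genes of injured and incompletely repaired tubules rose together. Of the 32 members of that list, all tested, 28 rose and none fell (26 of 30 without the 2 that reached the filter only through the cisplatin kidneys), and the median log2 difference was 2.77, against 0.37 over all genes. Vcam1, an adhesion molecule of tubule cells that fail to recover, stood at 1.1, 5.64 and 5.19 TPM in the saline kidneys and at 84.5, 66.2 and 101 TPM in the cisplatin kidneys (4.25 ± 0.57). Krt19, another keratin, rose from 0.946, 2.1 and 1.75 TPM to 60.9, 33.1 and 33.7 TPM (4.04 ± 0.32), and Sox9, a transcription factor of regenerating tubule cells, rose from 0.339, 0.656 and 0.646 TPM to 9.8, 7.32 and 8.66 TPM (2.63 ± 0.21). All 3 were low in every saline kidney and several-fold higher in every cisplatin kidney. The secreted matrix phosphoprotein Spp1, osteopontin, gained more TPM than any other gene: it went from 372, 1182 and 1838 TPM to 10987, 8121 and 6549 TPM (3.16 ± 0.83), and the chaperone clusterin, Clu, went from 269.7, 473 and 474 TPM to 2911, 2427 and 1164 TPM (2.36 ± 0.46). The call of Spp1 was lost without saline replicate 1 or cisplatin replicate 1 (adjusted p 0.0512 to 0.0519). Fgg, the fibrinogen γ chain, rose from 9.94, 12 and 7.85 TPM to 70.2, 75 and 64 TPM (2.71 ± 0.21). Anxa1 (5.18, 13.7 and 12.5 TPM, then 40.5, 21.2 and 14.2 TPM; adjusted p 0.107) and Prom1 (6.62, 43.2 and 66.1 TPM, then 63.4, 61.9 and 51.8 TPM; adjusted p 0.293) did not pass the test. Saline replicate 1 was lowest for both, and for Prom1 the groups overlapped.

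Targets of p53 rose as a group. Of 30 members 23 rose and none fell, with a median difference of 1.81. Cdkn1a, the cyclin-dependent kinase inhibitor p21 (chr17:29090979-29100722), stood at 5.68, 6.92 and 8.53 TPM in the saline kidneys and at 442, 529 and 224 TPM in the cisplatin kidneys (5.56 ± 0.39, adjusted p 3.42e-05). Phlda3, an inhibitor of Akt, went from 5.32, 7.16 and 9.49 TPM to 248, 241 and 160.1 TPM (4.71 ± 0.37), and Gdf15, a stress hormone that curbs appetite, from 12, 8.03 and 10 TPM to 238, 247 and 192 TPM (4.37 ± 0.21). Every cisplatin kidney exceeded every saline kidney by more than 10-fold in these 3 genes. The spindle protein gene Psrc1 rose from 0.386, 0.236 and 1.06 TPM to 43.6, 49.2 and 26 TPM (4.69 ± 0.44). Among the pro-apoptotic targets, Bbc3 (PUMA) rose from 2.82, 3.2 and 3.08 TPM to 53.1, 46.3 and 37.7 TPM (3.52 ± 0.22) and Bax from 101, 121 and 125 TPM to 448, 436 and 347 TPM (1.82 ± 0.19), and the death receptor gene Eda2r, at most 0.124 TPM under saline, reached 9.39, 9.46 and 6.23 TPM. Mdm2, the ubiquitin ligase that returns p53 to low levels, rose from 25, 23.7 and 26.1 TPM to 97, 92.5 and 62 TPM (1.68 ± 0.21), and Trp53 itself from 17, 23.2 and 20.4 TPM to 65.5, 54.5 and 50.3 TPM (1.45 ± 0.14). The nucleotide-supplying subunit Rrm2b stood at 9.7, 9.49 and 9.12 TPM and 9.37, 9.73 and 8.09 TPM (adjusted p 0.743 on TPM, lower at 0.0299 after scaling), and the stress regulator Sesn1 at 5.79, 10.2 and 10.6 TPM and 15, 12.1 and 8.96 TPM (adjusted p 0.226).

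Genes of the cell cycle rose beside the arrest gene Cdkn1a. Of 25 mitotic genes 20 passed the TPM filter, 8 of them only through the cisplatin kidneys. Of the other 12, 9 rose and none fell. Top2a, the topoisomerase of chromosome segregation, stood at 1.18, 0.682 and 0.529 TPM in the saline kidneys and at 5.8, 4.42 and 5.09 TPM in the cisplatin kidneys (1.77 ± 0.26), the kinase gene Cdk1 at 1.14, 0.439 and 0.392 TPM and 5.26, 4.05 and 4.26 TPM (1.76 ± 0.24), and Ccnb2, a cyclin of mitotic entry, at 2.33, 1.17 and 0.83 TPM and 10.5, 5.9 and 7.14 TPM (1.87 ± 0.35). Within the saline group, replicate 1 was highest for all 3, and no cisplatin kidney was as low. The proliferation marker Mki67 rose from 0.86, 0.494 and 0.691 TPM to 3.52, 2.56 and 2.33 TPM (1.17 ± 0.21). Ube2c, the ubiquitin-conjugating enzyme of mitotic exit, did not pass, at 3.27, 13.8 and 7.39 TPM and 21.5, 15.3 and 12.7 TPM (adjusted p 0.348). Mitotic genes are known to carry the cell cycle genes homology region, TTTGAA, near their starts. It was searched on both strands from 250 bases before to 50 bases after each RefSeq start (GRCm38.p6), and 13 of the 16 tested mitotic genes with a listed promoter held it (81.2%), against 14.6% of 11115 tested genes with one. A match describes these letters only. The windows of 4 of them are shown 5′ to 3′ on the gene's strand with the match in capitals, where TTCAAA is the same motif on the other strand.
Cdk1, chr10:69352910-69352939, minus strand: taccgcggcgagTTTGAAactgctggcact
Ccnb2, chr9:70421533-70421562, minus strand: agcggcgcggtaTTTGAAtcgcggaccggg
Mki67, chr7:135716460-135716489, minus strand: ccgccgttttggTTTGAAtcgggcgggctg
Top2a, chr11:99024195-99024224, minus strand: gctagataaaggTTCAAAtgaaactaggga

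Genes of DNA replication and entry into S phase rose less uniformly. Of 32 listed genes 27 were tested, 14 rose (51.9%, against 15.6% of all genes tested) and 1 fell, with a median difference of 0.94. Without Ccne1, which reached the filter only through the cisplatin kidneys, 13 of 26 rose. The histone chaperone subunit Chaf1b stood at 1.11, 0.985 and 0.857 TPM in the saline kidneys and at 11.3, 8.45 and 9.81 TPM in the cisplatin kidneys (2.45 ± 0.29), the maintenance methylation cofactor Uhrf1 at 0.685, 0.803 and 0.504 TPM and 9.3, 6.3 and 6.62 TPM (2.32 ± 0.25), and the helicase subunit Mcm7 at 11.2, 10.8 and 10 TPM and 42, 35.8 and 31.1 TPM (1.67 ± 0.13). The saline kidneys were close to each other and the cisplatin kidneys several-fold above them for all 3. Ccne1, the cyclin that starts S phase, rose from 0.49, 0.214 and 0.368 TPM to 3.05, 2.92 and 1.98 TPM (1.42 ± 0.19). Pcna, the polymerase clamp, passed on TPM alone (28.5, 36.2 and 36.9 TPM, then 69.4, 60.8 and 58.7 TPM; adjusted p 0.00287, and 0.0882 after scaling). An E2F site (TTTCGCGC, TTTGGCGC, TTTCCCGC or TTTGGCGG, either strand) lay in the same window of 10 of 21 replication genes (47.6%), against 4.66% of all promoters. The windows of Mcm7, Mcm5, which rose from 2.22, 2.15 and 2.73 TPM to 11.4, 7.56 and 8.95 TPM, and Uhrf1 show it in capitals, that of Mcm5 on the other strand.
Mcm7, chr5:138171849-138171878, minus strand: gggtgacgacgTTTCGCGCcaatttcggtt
Mcm5, chr8:75109349-75109378, plus strand: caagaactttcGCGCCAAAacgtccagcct
Uhrf1, chr17:56304117-56304146, plus strand: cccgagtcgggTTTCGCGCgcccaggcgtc

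Among tested genes that repair crosslinks the share that rose on both scales was near that of all genes. Of 29 crosslink and recombination repair genes 19 were tested and 4 rose (21.1%, against 15.6% of all genes tested), 2 of them among the 16 that did not need the cisplatin kidneys to pass the filter (12.5%, against 14.2% of all such genes). Ube2t was among those that needed them. Ercc1, a subunit of the nuclease that cuts at crosslinks, stood at 7.66, 11.9 and 11.6 TPM and 40.9, 43.9 and 31.8 TPM (1.82 ± 0.25), although its span overlaps Cd3eap. Fanca, of the Fanconi core complex, stood at 0.686, 0.959 and 1.49 TPM and 3.72, 3.62 and 2.8 TPM (1.11 ± 0.23, with a span that overlaps Zfp276), and Ube2t, which works with that complex, at 0.476, 0.388 and 0.63 TPM and 2.97, 1.78 and 2.01 TPM (1.10 ± 0.21). All 3 genes had every cisplatin kidney above every saline kidney, as did 15 of the 19 tested members, against 47.4% of all genes tested. Fancd2, Brca1 and Brca2 stayed under the TPM filter and were not tested. Fancd2 stood at 0.10, 0.13 and 0.13 TPM under saline and 0.71, 0.36 and 0.38 TPM under cisplatin. Brca1 stood at 0.25, 0.20 and 0.13 TPM and then 1.52, 0.92 and 1.12 TPM, and Brca2 at 0.48, 0.43 and 0.47 TPM and then 1.38, 1.21 and 0.92 TPM. In Fancb and Brip1, also under the filter, the groups overlapped. Of 23 tested checkpoint genes 6 rose (26.1%, against 15.6% of all genes tested), 5 of them among the 22 that did not need the cisplatin kidneys to pass the filter (22.7%, against 14.2%). They included the kinase gene Chek1, which did need them (0.262, 0.333 and 0.33 TPM, then 2.04, 1.25 and 1.22 TPM) and Rpa2, which coats single-stranded DNA (5.69, 7.02 and 7.34 TPM, then 18.4, 16.8 and 13.3 TPM). In base excision repair 2 of 11 rose (18.2%), a share near the 15.6% of all genes tested. They were the glycosylase gene of oxidized guanine, Ogg1 (10.2, 10.9 and 9.29 TPM, then 22.3, 20.8 and 17.5 TPM, with a span that overlaps Camk1), and the endonuclease gene Apex1 (12.4, 13 and 11.9 TPM, then 33.7, 26.6 and 30 TPM).

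Of 14 tested genes of senescence and its secretory program 8 rose (57.1%, against 15.6% of all genes tested). Another 1 fell, where 4.88% of all genes tested did. Cdkn2b, the kinase inhibitor p15, stood at 0.492, 1.44 and 0.632 TPM and 16.4, 8.95 and 7.45 TPM (2.65 ± 0.38). It was low in all saline kidneys. Igfbp3, a binding protein of insulin-like growth factors, fell from 56.7, 186 and 201 TPM to 53.6, 30.7 and 13.2 TPM (−2.15 ± 0.69), and its saline replicate 1 was only just above the highest cisplatin kidney. Its call was lost without saline replicates 2 or 3 or cisplatin replicates 2 or 3 (adjusted p 0.0674 to 0.0962). Cdkn2a stayed under the filter at 0 TPM in the 3 saline kidneys and 0.589, 0.902 and 0.477 TPM in the cisplatin kidneys, and Il6 at 0 TPM and then 0.0879, 0.0410 and 0.0830 TPM.

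Inflammatory signaling rose across several arms. Of 15 NF-kB response genes 11 rose and none fell (median difference 2.02). Relb, a subunit of the non-canonical dimer, stood at 2.72, 5.94 and 3.85 TPM in the saline kidneys and at 40.2, 32.9 and 29.2 TPM in the cisplatin kidneys (2.80 ± 0.32), the leukocyte ligand Icam1 at 6.82, 12.5 and 13.6 TPM and 89.7, 82.6 and 60.2 TPM (2.74 ± 0.32), and the feedback inhibitor Nfkbia at 22.2, 41.8 and 32.3 TPM and 159.9, 137 and 99.5 TPM (2.02 ± 0.34). The cisplatin kidneys were above all saline kidneys in each, as the choice of Relb and Icam1 required. Of 25 chemokines and cytokines 23 were tested, 9 of them only through the cisplatin kidneys. Of the other 14, 6 rose (42.9%, against 14.2% of all such genes). Ccl2, which draws monocytes, rose from 0.085, 1.04 and 1.24 TPM to 16.7, 12.2 and 34.9 TPM (3.57 ± 0.61), Csf1, a growth factor of macrophages, from 1.69, 5.35 and 4 TPM to 40.6, 37.1 and 29.7 TPM (3.05 ± 0.46), and the interferon-induced chemokine Cxcl10 from 1.21, 6.5 and 6.76 TPM to 40.4, 43.9 and 23.6 TPM (2.82 ± 0.51). These 3 were highest in different cisplatin mice. Il1b did not pass, at 0.593, 2.11 and 1.75 TPM and 2.38, 1.78 and 1.36 TPM (adjusted p 0.564), and Cxcl12, a homeostatic chemokine, was lower after scaling only (10.6, 45.3 and 18.8 TPM, then 15.8, 10.2 and 6.6 TPM; adjusted p 0.198 on TPM and 0.0477 after scaling). The NF-kB consensus, GGG, any pair of bases and TTTCC, on either strand, lay in the promoter window of 5 of 18 chemokines (27.8%) and 3 of 10 NF-kB response genes, against 2.04% of all promoters. The windows of 4 of these, among them Nfkb2, which rose from 7.28, 12.1 and 9.28 TPM to 60, 49 and 47.4 TPM, show the match in capitals. Those of Nfkbia and Csf1 carry it on the other strand.
Cxcl1, chr5:90891164-90891193, plus strand: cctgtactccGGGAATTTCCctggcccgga
Csf1, chr3:107760604-107760633, minus strand: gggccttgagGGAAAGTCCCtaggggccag
Nfkbia, chr12:55492657-55492686, minus strand: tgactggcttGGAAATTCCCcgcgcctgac
Nfkb2, chr19:46304716-46304745, plus strand: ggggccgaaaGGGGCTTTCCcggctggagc

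Interferon-stimulated genes and antigen presentation rose in part. Of 26 tested interferon-stimulated genes 9 rose (34.6%, against 15.6% of all genes tested), with a median difference of 1.06. Among them were the transcription factor Irf7 (3.76, 9.66 and 9.25 TPM, then 61.6, 45.7 and 26.6 TPM; 2.43 ± 0.41) and the antiviral gene Ifit3 (4.73, 19.1 and 11.7 TPM, then 51.7, 56.3 and 28.2 TPM). Of 16 genes of MHC class I and II 9 rose, 8 of 15 without the member that reached the filter only through the cisplatin kidneys (median difference 1.71). The class I heavy chain H2-K1 stood at 166, 360.0 and 291 TPM and 1429, 999 and 868 TPM (2.05 ± 0.29), the peptide transporter Tap1 at 2.74, 8.54 and 8.09 TPM and 40.8, 37.8 and 16 TPM, and the immunoproteasome subunit Psmb8 at 5.21, 23.5 and 16.2 TPM and 87, 62.6 and 40.7 TPM. In Tap1 and Psmb8 saline replicate 1 and cisplatin replicate 3 were the lowest of their groups, and these were the libraries with Y-linked RNA. Of 18 tested complement genes 9 rose, 7 of 16 without those that reached the filter only through the cisplatin kidneys (median difference 1.40), from C3 above to Cfi, the protease that inactivates it (1.24, 3.51 and 19.1 TPM, then 43.7, 48.8 and 26.1 TPM; 2.74 ± 0.67), and C1qa, a subunit of the classical pathway's C1q that macrophages make (8.86, 27.2 and 26 TPM, then 175, 77.5 and 55.8 TPM). The call of Psmb8 was lost without cisplatin replicate 1 (adjusted p 0.0521), and that of C1qa without saline replicate 1 or cisplatin replicate 1 (adjusted p 0.0688 to 0.0776).

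Many macrophage and dendritic cell markers rose, but not every defining member. Of 21 tested markers 13 rose and none fell (12 of 19 without the 2 that reached the filter only through the cisplatin kidneys), with a median difference of 1.64. The lysosomal marker Cd68 stood at 1.9, 5.32 and 4.17 TPM in the saline kidneys and at 45.7, 19.9 and 15.3 TPM in the cisplatin kidneys (2.47 ± 0.51), the lipid receptor Trem2 at 0.346, 0.269 and 0.147 TPM and 12.7, 3.4 and 4.44 TPM (2.46 ± 0.40), and lysozyme, Lyz2, at 11.7, 25.3 and 18.7 TPM and 153, 76.3 and 75.9 TPM (2.37 ± 0.52). Cisplatin replicate 1 was highest for all 3. Cd14, a coreceptor for lipopolysaccharide that tubule cells can also express, rose from 3.29, 7.55 and 5.9 TPM to 87.1, 36.1 and 58.4 TPM (3.19 ± 0.53). The receptor gene Csf1r (19.2, 43.1 and 17.1 TPM, then 33.4, 23.7 and 21.9 TPM; adjusted p 0.843) and Adgre1, which encodes F4/80 (0.443, 1.63 and 2.37 TPM, then 4.86, 1.52 and 1.25 TPM; adjusted p 0.421), overlapped and did not pass. None of 13 tested T and NK cell markers rose or fell. Of 10 neutrophil markers only S100a8 and S100a9 were tested, neither passed, and they stood at 0 to 3.2 TPM and 1.46 to 5.82 TPM. The part of immune cells in the immune gene groups above was not tested.

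Matrix genes were mostly without a call. Of 35 tested genes of extracellular matrix and fibrosis 7 rose (20%, against 15.6% of all genes tested) and none fell. Without Mmp7, which reached the filter only through the cisplatin kidneys, 6 of 34 rose, and the median difference of the list, 0.58, was close to the 0.37 of all genes. The members that rose were the basement membrane collagen genes Col4a1, Col4a2 and Col18a1, the proteases Mmp7 and Mmp14, the protease inhibitor Timp1 and the cytokine Tgfb1: Timp1 went from 0.462, 1.51 and 0.359 TPM to 34.4, 19.4 and 19.8 TPM (3.85 ± 0.55, with a span that overlaps Syn1), the membrane protease gene Mmp14 from 3.78, 9.32 and 9.15 TPM to 62.5, 42.1 and 31.3 TPM (2.49 ± 0.57), matrilysin, Mmp7, from 0.156, 0 and 0 TPM to 8, 2.74 and 2.47 TPM, and Col18a1 from 41.5, 71.5 and 72 TPM to 272, 238 and 196 TPM (1.95 ± 0.32). Tgfb1, the profibrotic cytokine, rose from 5.33, 13.5 and 13.4 TPM to 39.5, 23.8 and 25.7 TPM (1.45 ± 0.46, adjusted p 0.0281), a call that was lost without saline replicate 1 or cisplatin replicate 1 (adjusted p 0.109 to 0.11). The call of Col4a2 was lost without saline replicate 1 or cisplatin replicates 1 or 2 (adjusted p 0.0612 to 0.0792). The fibrillar collagens Col1a1 (3.56, 8.45 and 7.96 TPM, then 24.4, 17.6 and 12.1 TPM; adjusted p 0.0671) and Col3a1 (2.44, 10.5 and 10.2 TPM, then 25.5, 11.5 and 10.8 TPM; adjusted p 0.237) and the myofibroblast actin Acta2 (36.9, 67.8 and 53.1 TPM, then 61.4, 67.7 and 44.3 TPM; adjusted p 0.709) did not pass.

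Immediate early genes and ligands of the epidermal growth factor receptor rose while Egf itself fell. Of 19 tested growth factor and immediate early genes 13 rose and 2 fell, and without 3 that passed the filter only through the cisplatin kidneys 10 of 16 rose. The transcription factors Egr1 (1.73, 3.77 and 2.16 TPM, then 37.8, 29.1 and 21.7 TPM; 3.11 ± 0.43), Atf3 (0.658, 2.12 and 1.27 TPM, then 22, 14 and 13.1 TPM; 2.90 ± 0.32) and Junb (11.3, 21.2 and 14.8 TPM, then 128, 105 and 72.6 TPM; 2.62 ± 0.40) were low in all saline kidneys. Myc rose from 5.28, 4.89 and 3 TPM to 24, 17.5 and 18.6 TPM (1.98 ± 0.30). The receptor ligands Areg, at 0.0571, 0 and 0 TPM under saline and 3.63, 2.34 and 2.45 TPM under cisplatin, and Hbegf, which rose from 11.7, 6.87 and 7.41 TPM to 36.1, 29 and 28.2 TPM (1.76 ± 0.20), moved upward. Areg reached the filter only through the cisplatin kidneys of FAN1KO mice and so had to be higher there. Egf, made by the thick ascending limb and distal convoluted tubule, fell from 369.8, 589.5 and 426 TPM to 66.2, 67.8 and 104 TPM (−2.53 ± 0.36, adjusted p 0.000654), and Vegfa, which maintains capillaries, from 98.8, 104 and 111 TPM to 73.8, 62.7 and 55.4 TPM (−0.71 ± 0.12, adjusted p 0.00179).

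Of 22 tested genes of regulated cell death 9 rose (40.9%, against 15.6% of all genes tested) and 1 fell, where 4.88% did. Without Ripk3, which reached the filter only through the cisplatin kidneys, 8 of 21 rose (38.1%, against 14.2%). The necroptosis kinase gene Ripk3 went from 0.209, 0.447 and 0.895 TPM to 6.3, 4.97 and 3.38 TPM (1.95 ± 0.28), its effector Mlkl from 0.443, 1.97 and 1.76 TPM to 8.68, 6.41 and 4.88 TPM (1.72 ± 0.34), and the inflammatory caspase gene Casp4 from 0.43, 2.05 and 1.51 TPM to 11.5, 8.31 and 5.07 TPM (2.01 ± 0.35). Tfrc, the transferrin receptor, fell from 29.9, 27.2 and 23.3 TPM to 9.81, 11.4 and 9.42 TPM (−1.31 ± 0.23). In each of the 4 the groups did not overlap, which the choice of these genes required. Genes of oxidant defense moved both ways, with 8 of 34 up (23.5%, against 15.6% of all genes tested) and 3 down, where 4.88% of all genes tested fell. The metallothioneins Mt1 (193, 326 and 495 TPM, then 1391, 1649.5 and 645 TPM; 1.85 ± 0.53) and Mt2 (82.2, 144 and 247 TPM, then 1244, 1094 and 427 TPM; 2.54 ± 0.58), which bind metals, and Nqo1, a quinone reductase induced by NRF2 (62.6, 52.9 and 31.9 TPM, then 161, 137 and 171 TPM; 1.70 ± 0.25), rose. The call of Mt1 was lost without saline replicate 1 or cisplatin replicates 1 or 2 (adjusted p 0.0704 to 0.0737). Peroxisomal catalase, Cat, fell from 574, 523 and 608 TPM to 273, 305 and 366 TPM (−0.86 ± 0.12), the mitochondrial superoxide dismutase gene Sod2 from 172, 166 and 177 TPM to 91.3, 106 and 104 TPM (−0.77 ± 0.09), and mitochondrial peroxiredoxin Prdx3 from 207, 198 and 209 TPM to 140.1, 153 and 149 TPM (−0.47 ± 0.09). Hmox1, heme oxygenase 1, did not pass, at 386, 141 and 93.5 TPM and 82.3, 77.3 and 81.5 TPM (adjusted p 0.559).

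Of 13 genes that carry, export or conjugate cisplatin 1 rose (7.69%, against 15.6% of all genes tested) and 3 fell, where 4.88% of all genes tested did. The basolateral importer Slc22a2 stood at 335, 149 and 159 TPM in the saline kidneys and at 61.8, 71.9 and 175 TPM in the cisplatin kidneys (adjusted p 0.0777), the apical exporter Slc47a1 at 583, 332 and 346 TPM and 258, 249 and 403 TPM (adjusted p 0.193), and Ggt1, whose promoter drives the Cre, at 1295, 718 and 650.1 TPM and 349, 474 and 868 TPM (adjusted p 0.19). None of the 3 passed, and in each the library with Y-linked RNA was the highest of its group. The copper transporter Slc31a1 fell from 91.9, 75 and 75.2 TPM to 60.2, 61.4 and 67.3 TPM (−0.35 ± 0.12, adjusted p 0.0402), a call that was lost without saline replicates 1 or 3, cisplatin replicates 1 or 2 or wild-type saline replicates 1 or 2 (adjusted p 0.0503 to 0.151), and its relative Slc31a2 rose from 14, 21 and 21.9 TPM to 44.7, 37.1 and 38.3 TPM (1.06 ± 0.23). The brush border peptidases that trim glutathione conjugates, Dpep1 (129, 94.4 and 126 TPM, then 31.6, 24.4 and 33.6 TPM; −1.93 ± 0.18) and Anpep (98.7, 66.3 and 79 TPM, then 38.1, 44.2 and 39.2 TPM; −0.97 ± 0.15), fell.

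Genes of the ATF4 amino acid response and the unfolded protein response split. Of 17 members 7 rose (41.2%, against 15.6% of all genes tested) and 2 fell, where 4.88% did. Phgdh, the entry enzyme of serine synthesis, rose from 3.9, 4.5 and 7.5 TPM to 34.6, 33.9 and 32.7 TPM (2.50 ± 0.29), asparagine synthetase, Asns, from 2.83, 6.45 and 5.85 TPM to 20.3, 19.3 and 19.6 TPM (1.84 ± 0.25), and the pseudokinase gene Trib3 from 0.501, 1.14 and 0.838 TPM to 4.68, 3.69 and 3.7 TPM (1.47 ± 0.25). The 3 cisplatin kidneys were near each other for Phgdh and Asns. The endoplasmic reticulum chaperone gene Hspa5, a marker of the unfolded protein response, fell from 493, 792 and 711 TPM to 360.4, 352 and 392 TPM (−0.83 ± 0.22), and mitochondrial Shmt2, which makes one-carbon units from serine, from 223, 153 and 179 TPM to 82.6, 89.2 and 108 TPM (−0.97 ± 0.22). The CCAAT enhancer-binding and ATF composite element TGATGNAA, either strand, lay in 4 of 17 promoters (23.5%), against 2.83% of all. It is shown for the 2 members that rose and held it, in Trib3 on the other strand.
Asns, chr6:7693214-7693243, minus strand: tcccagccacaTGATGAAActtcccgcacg
Trib3, chr2:152344028-152344057, minus strand: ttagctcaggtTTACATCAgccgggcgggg

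Most genes of the tricarboxylic acid cycle fell. Of its 18 genes 15 fell and none rose, with a median difference of −0.54. Suclg2, a subunit of succinyl-CoA synthetase, stood at 108, 83 and 102 TPM in the saline kidneys and at 56.2, 55.7 and 58 TPM in the cisplatin kidneys (−0.77 ± 0.20), Dld, a subunit of the dehydrogenase complexes, at 263, 275 and 276 TPM and 158, 158 and 174 TPM (−0.73 ± 0.09), and Sdha, the catalytic subunit of complex II, at 435, 535 and 524 TPM and 293, 320.1 and 338 TPM (−0.65 ± 0.11). In all 3 the lowest saline kidney was above the highest cisplatin kidney, as the choice of these genes required. Among the 13 mitochondrially encoded mRNAs 8 fell (median difference −0.68) and in all 13 the groups did not overlap, as in 7.43% of all genes tested. ND2, a subunit of complex I, stood at 14485, 12257 and 13231 TPM and 4603, 6319 and 8980.3 TPM (−1.06 ± 0.26, adjusted p 0.00911), and COX1, the catalytic subunit of complex IV and the RNA with the highest mean TPM in the saline kidneys, at 36349, 47329.6 and 44159 TPM and 21858, 29371 and 32773 TPM, which passed after scaling only (adjusted p 0.124 on TPM and 0.0465 after scaling). Cisplatin replicate 1 was the lowest and replicate 3 the highest of the cisplatin kidneys for both.

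Fewer of the nuclear subunits of the respiratory chain fell. For complex I 4 of 36 fell and none rose, with a median of −0.04, and for complexes II to V 10 of 38 fell and none rose, with a median of −0.13. Over all genes tested 4.88% fell and the median was 0.37. After median-ratio scaling the medians of these 2 lists were −0.48 and −0.57, against −0.01 over all genes. On that scale alone 13 of 36 and 19 of 38 were lower, against 13.7% of all genes tested. Ndufs1, the large iron-sulfur subunit of complex I, stood at 159, 163 and 167 TPM and 86.1, 89.3 and 91.7 TPM (−0.87 ± 0.09), Uqcrc2, a core subunit of complex III, at 399, 465 and 465 TPM and 271, 280.0 and 266 TPM (−0.70 ± 0.10), and Atp5a1, the α subunit of ATP synthase, at 1554, 1727 and 1696 TPM and 1287, 1342 and 1225 TPM (−0.37 ± 0.12). The call of Atp5a1 was lost without saline replicates 2 or 3 or cisplatin replicates 1, 2 or 3 (adjusted p 0.0565 to 0.0781). Sdhb of complex II fell from 675, 788 and 717 TPM to 519.6, 569.5 and 523 TPM (−0.43 ± 0.10). The small subunits Ndufa1 (432, 383 and 451 TPM, then 344, 442 and 388 TPM; adjusted p 0.526), Ndufb8 (865, 1028 and 949.8 TPM, then 1096, 1159 and 1042 TPM; adjusted p 0.37) and Cox4i1 (2569, 3397 and 3306 TPM, then 3281, 3706 and 3399.7 TPM; adjusted p 0.549) did not pass, and the sign of Ndufb8 and Cox4i1 turned from above to below 0 after scaling. Of 14 genes of mitochondrial biogenesis 3 fell, where 4.88% of all genes tested did. Among them were the deacetylase gene Sirt3 (103, 91.1 and 100 TPM, then 54.9, 54.9 and 63.5 TPM, with a span that overlaps Ric8a) and the nuclear receptor gene Esrra (165, 168 and 185 TPM, then 116, 122 and 129 TPM, with a span that overlaps Trmt112). The coactivator Ppargc1a stood at 14.3, 24.4 and 18.8 TPM and 17.1, 19.4 and 16 TPM and did not pass (adjusted p 0.803).

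In mitochondrial fatty acid oxidation 7 of 19 genes fell, where 4.88% of all genes tested did, and none rose. The median difference was −0.26, against 0.37 over all genes. Acadm, the medium-chain acyl-CoA dehydrogenase, stood at 759, 894 and 748 TPM and 379, 403 and 465 TPM (−0.94 ± 0.13), the hydratase gene Echs1 at 277, 330.3 and 298 TPM and 176, 199 and 212 TPM (−0.62 ± 0.10, with a span that overlaps Paox), and Etfa, which passes electrons to the respiratory chain, at 417, 403 and 398 TPM and 234, 243 and 268 TPM (−0.71 ± 0.11). The groups did not overlap in any of the 3, as the choice of Acadm and Etfa required. The carnitine shuttle genes did not pass on TPM: Cpt1a stood at 174, 127 and 130.2 TPM and 156, 148 and 159 TPM (adjusted p 0.481) and Cpt2 at 112, 95.6 and 85.6 TPM and 68.2, 79.6 and 94.5 TPM (adjusted p 0.107, and 0.042 after scaling). Acadvl, the very long-chain acyl-CoA dehydrogenase, was uneven among the FAN1KO mice, at 179, 44.3 and 38.5 TPM under saline and 166, 67.1 and 51.6 TPM under cisplatin (adjusted p 0.681), while the 6 wild-type kidneys held 304 to 367 TPM. Ppara, the nuclear receptor that drives this program, stood at 27.7, 27.4 and 28 TPM and 24.6, 29.7 and 23.9 TPM (adjusted p 0.755). Of 24 peroxisomal and PPAR-α responsive genes 3 rose (12.5%, against 15.6% of all genes tested) and 4 fell, where 4.88% of all genes tested did. The 3 were Pdk4, which keeps pyruvate out of the cycle (4.71, 13.4 and 4.75 TPM, then 43.6, 45.2 and 20.2 TPM; 2.18 ± 0.52), the lipase inhibitor gene Angptl4 (36.7, 38.8 and 15.8 TPM, then 101, 134 and 95 TPM; 1.90 ± 0.48) and Plin2, the coat protein of lipid droplets (82.4, 73.8 and 50.3 TPM, then 216, 160.2 and 171 TPM; 1.41 ± 0.34).

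Every gene of the list for gluconeogenesis and fructose use fell, 8 of 8, with a median difference of −0.97. G6pc, which releases glucose, stood at 490.0, 344 and 258 TPM in the saline kidneys and at 92.1, 151 and 166 TPM in the cisplatin kidneys (−1.40 ± 0.26), Fbp1, fructose-1,6-bisphosphatase (chr13:62864753-62888298), at 1518, 1318 and 1436 TPM and 619.7, 709 and 701 TPM (−1.07 ± 0.10), and Pck1, the rate-limiting carboxykinase, at 1887, 2476 and 2235 TPM and 1114, 1159 and 532 TPM (−1.31 ± 0.40). No cisplatin kidney reached a saline kidney in these 3, as the choice of G6pc and Pck1 required. The call of Pck1 was lost without saline replicates 2 or 3 or cisplatin replicate 3 (adjusted p 0.0619 to 0.0827). Of 16 glycolysis genes 1 rose (6.25%, against 15.6% of all genes tested), the hexokinase gene Hk2. It reached the filter only through the cisplatin kidneys and was at 0.131 to 0.182 TPM under saline and at 3.62, 2.26 and 1.97 TPM under cisplatin (1.61 ± 0.23).

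Genes of proximal tubule transport fell in part. Of 38 members 16 fell and none rose, with a median difference of −0.83, and the list took 1.66, 1.23 and 1.26% of TPM in the saline kidneys and 0.560, 0.612 and 0.939% in the cisplatin kidneys. The phosphate transporters of the brush border went from 3563, 2635 and 3689 TPM to 837, 954 and 1590.0 TPM (Slc34a1; −1.59 ± 0.23) and from 36.9, 44.5 and 91.7 TPM to 6.61, 11.1 and 9.64 TPM (Slc34a3; −2.45 ± 0.32). The citrate and succinate carrier Slc13a3 went from 706, 595 and 493 TPM to 177, 182 and 280.4 TPM (−1.50 ± 0.18), the glucose transporter Slc5a2 (SGLT2) from 371, 317 and 506 TPM to 175, 159 and 212 TPM (−1.11 ± 0.19), and the endocytic receptor megalin, Lrp2, from 204, 246 and 291 TPM to 67.6, 78.3 and 122 TPM (−1.49 ± 0.23). Cisplatin replicate 3 kept the highest level of the 3 cisplatin kidneys for Slc34a1, Slc13a3, Slc5a2 and Lrp2. Slc22a6, the organic anion importer OAT1, stood at 812, 175 and 249 TPM and 59.3, 77.3 and 198 TPM, overlapped and did not pass (adjusted p 0.0538). The half-site GTTAAT of hepatocyte nuclear factor 1, a regulator of these genes, lay on either strand in 5 of 31 promoter windows (16.1%), against 5.99% of all. It is shown in capitals for Slc34a1 and for the organic anion transporter Slc22a8, which fell from 226, 392 and 447 TPM to 87.6, 133 and 216 TPM.
Slc34a1, chr13:55399575-55399604, plus strand: cttgggggtaaaGTTAATttaatggggaaa
Slc22a8, chr19:8593089-8593118, plus strand: cccctgccggatGTTAATcttccaaagaaa

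Of 26 proximal tubule enzymes and other abundant proximal genes 10 fell and none rose, with a median difference of −1.11. Acmsd, an enzyme of tryptophan breakdown, stood at 191, 129 and 189 TPM and 24.5, 39.3 and 56.5 TPM (−2.11 ± 0.28), Gatm, the first enzyme of creatine synthesis, at 500.4, 845 and 1587 TPM and 172, 212 and 242 TPM (−2.08 ± 0.44), and myo-inositol oxygenase, Miox, at 4407, 5895 and 6618 TPM and 917, 1209 and 2179.5 TPM (−2.05 ± 0.39). The groups were apart in all 3, as the choice of Acmsd and Gatm required. Kap, the androgen-regulated kidney protein, followed Y-linked RNA within each group: it stood at 60343, 15239.5 and 5969 TPM under saline and 724, 555 and 14075 TPM under cisplatin and did not pass (adjusted p 0.0639), with saline replicate 1 and cisplatin replicate 3 the highest of their groups, as they were for Cyp2e1 (1982, 143 and 119.8 TPM, then 57.6, 50.8 and 396 TPM; adjusted p 0.403). In the pair of libraries without Y-linked RNA in each group, Kap was 5969 and 15240 TPM under saline and 555 and 724 TPM under cisplatin. Among 18 tubule transcription factors 4 rose (22.2%, against 15.6% of all genes tested) and 1 fell, where 4.88% of all genes tested did. The one that fell was Hnf4a, a regulator of proximal tubule maturation (429.9, 384 and 396 TPM, then 234, 243 and 342 TPM; −0.58 ± 0.13), and those that rose included Pax8, of the nephron lineage (39.4, 52.7 and 42.7 TPM, then 114, 106 and 85.9 TPM; 1.16 ± 0.14), and Klf5 (0.337, 0.727 and 0.44 TPM, then 10.7, 6.34 and 6.14 TPM; 2.51 ± 0.27).

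Hormone genes and the distal nephron were also touched. Of 14 tested genes of kidney hormones, klotho and vitamin D 1 rose (7.14%, against 15.6% of all genes tested). Another 5 fell, where 4.88% of all genes tested did. Renin, Ren1, went from 157, 226 and 191 TPM to 46.9, 37.1 and 17.9 TPM (−2.55 ± 0.63, adjusted p 0.00994), klotho, Kl, the coreceptor for FGF23, from 265, 201 and 285 TPM to 65.5, 105 and 88.7 TPM (−1.53 ± 0.19), and the calcium buffer Calb1 of the distal nephron from 286, 358 and 318 TPM to 137, 217 and 109 TPM (−1.10 ± 0.38), while angiotensinogen, Agt, rose from 22.3, 76.4 and 28.1 TPM to 116, 134 and 111 TPM (1.69 ± 0.43). All 4 had non-overlapping groups, which the choice of these genes required. The call of Calb1 was lost without saline replicates 1, 2 or 3, cisplatin replicates 1 or 3 or wild-type cisplatin replicate 2 (adjusted p 0.0519 to 0.117). The defining transporters of the thick ascending limb and distal convoluted tubule did not pass: Slc12a1 stood at 112, 519 and 181 TPM and 139, 157 and 185 TPM (adjusted p 0.573), Slc12a3 at 333, 465 and 468 TPM and 464, 609 and 234 TPM (adjusted p 0.942), and uromodulin, Umod, at 1229.6, 2444 and 1444 TPM and 1422, 1573 and 1224 TPM (adjusted p 0.65). Of 9 principal cell genes 3 rose (33.3%, against 15.6% of all genes tested). Among them was the water channel Aqp2 (141, 453 and 342 TPM, then 738, 956 and 1292 TPM; 1.79 ± 0.45). The median difference of these 9 genes, 0.46, was close to the 0.37 of all genes. None of 11 intercalated cell genes rose or fell.

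Of 14 podocyte genes 1 rose (7.14%, against 15.6% of all genes tested) and 2 fell, where 4.88% of all genes tested did. Nephrin, Nphs1, did not pass (5.59, 12.4 and 11.2 TPM, then 17.8, 6.63 and 2.61 TPM; adjusted p 0.662). Endothelial markers had a median difference of −0.94 over 15 tested genes but only Kdr, the VEGF receptor, fell (5.08, 25.8 and 26.8 TPM, then 6.32, 2.64 and 1.7 TPM; −1.99 ± 0.71, adjusted p 0.0466), and the groups overlapped in all 15. The call of Kdr was lost without saline replicates 2 or 3, cisplatin replicates 1, 2 or 3, wild-type saline replicates 1 or 2 or wild-type cisplatin replicate 3 (adjusted p 0.0527 to 0.14). Pecam1 stood at 9.78, 40.6 and 32 TPM and 19.3, 12.3 and 5.31 TPM (adjusted p 0.253). For Kdr and Pecam1, as for Esm1, saline replicate 1 was the lowest of its group and near or within the cisplatin range. Of 6 listed erythroid genes 4 were tested and all fell, including Alas2, the first enzyme of heme synthesis in red cell precursors (3.53, 7.38 and 8.47 TPM, then 1.01, 0.315 and 0.98 TPM; −2.03 ± 0.58). The call of Alas2 was lost without saline replicate 3 or cisplatin replicate 2 (adjusted p 0.0593 to 0.0651). The 4 took 0.0536, 0.141 and 0.147% of TPM in the saline kidneys and 0.000785, 0.00142 and 0.00746% in the cisplatin kidneys. The amount of blood left in each kidney is not given in the sources used here, and its part in the globin difference was not tested.

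**Figure D3:**
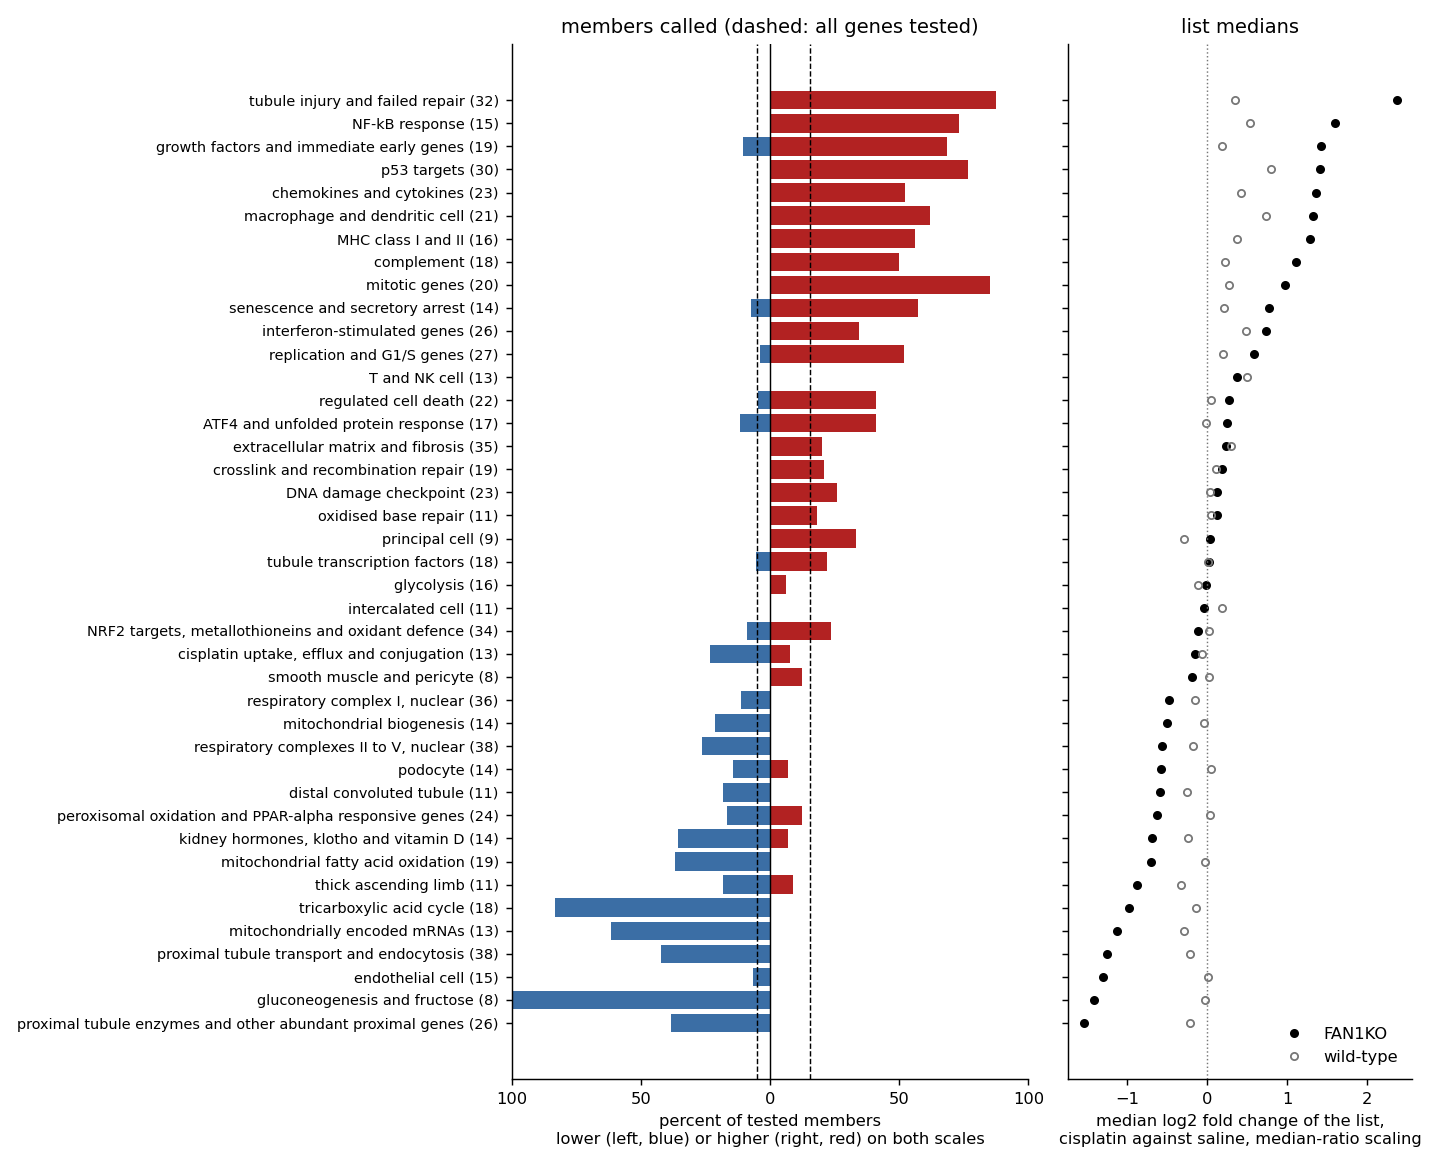
Left, percent of each list's tested members (number in parentheses) that were lower (blue) or higher (red) on both scales in FAN1KO cisplatin against saline kidneys, with the percent over all genes tested dashed (4.88 and 15.6%). Right, the median log2 difference of each list after median-ratio scaling in FAN1KO (filled) and wild-type (open) mice. Lists of 8 or more tested genes are shown, from gluconeogenesis and proximal tubule lists at the low end to tubule injury at 2.37.

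The 3 cisplatin kidneys did not sit at the same level. Relative to the mean of the FAN1KO saline kidneys, and after subtracting each library's median, the tubule injury list stood at 2.89, 2.61 and 2.59 in cisplatin replicates 1, 2 and 3, so that these mice were close. The proximal tubule transport list stood at −1.82, −1.53 and −0.61, the proximal enzyme list at −2.05, −1.87 and −0.66 and the mitochondrial mRNAs at −1.77, −1.22 and −0.69. Replicate 3 was nearest to the saline kidneys in all 3 lists. The macrophage list stood at 1.79, 0.85 and 0.89, highest in replicate 1, and the endothelial list at −0.81, −1.24 and −1.83, lowest in replicate 3. Among the saline kidneys replicate 1 was highest for proximal tubule transport (0.55, against −0.33 and −0.21) and lowest for MHC genes (−0.63, against 0.43 and 0.19) and endothelial markers (−0.96, against 0.56 and 0.40).

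**Figure D4:**
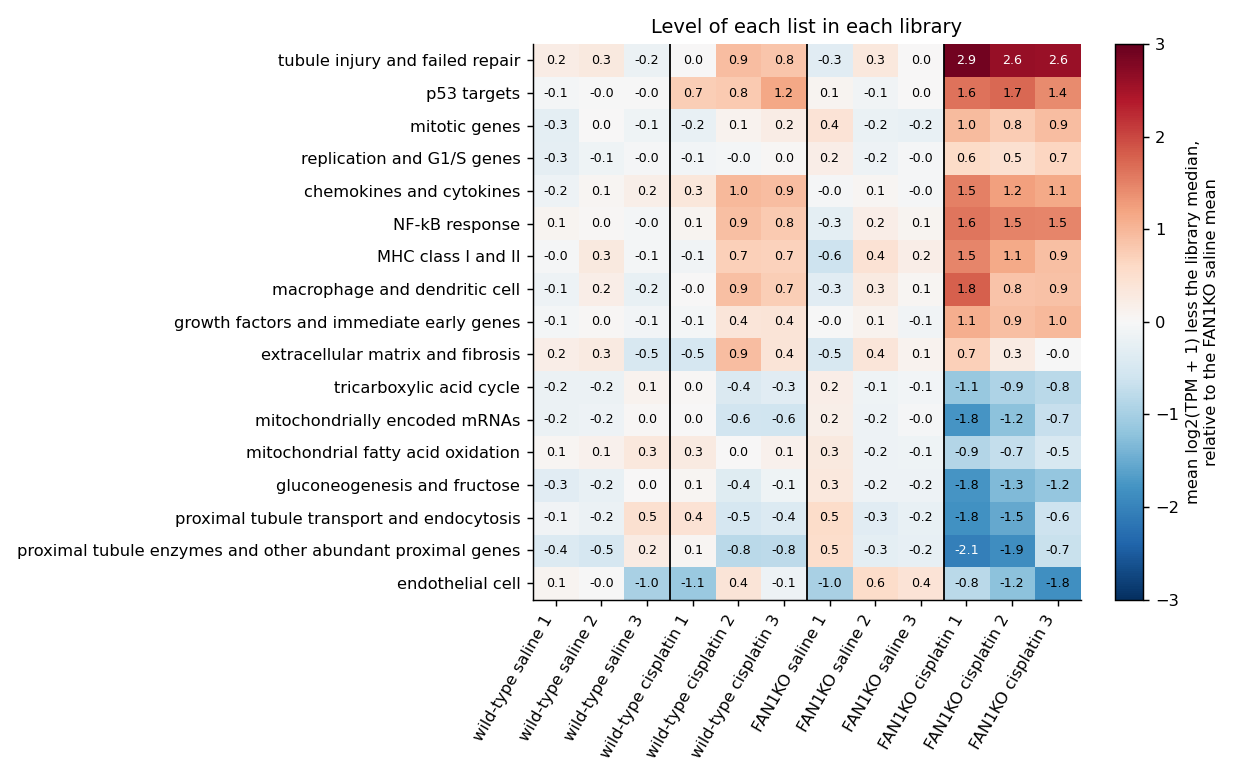
Mean log2(TPM + 1) of each list in each of the 12 libraries, less the library's median over genes and relative to the mean of the 3 FAN1KO saline kidneys; color and printed number give the same value. The FAN1KO cisplatin columns run from 2.59 to 2.89 for tubule injury and from −1.82 to −0.61 for proximal tubule transport, while the wild-type cisplatin columns run from 0.00 to 0.92 and from −0.50 to 0.44.

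The same course of cisplatin gave far fewer calls in wild-type mice, where 9 genes were higher (0.0601%) and none lower at adjusted p under 0.05, with 382 higher and 67 lower at an unadjusted p under 0.05. limma's voom on the recovered reads gave 10 higher and 0 lower, and leaving out 1 library at a time gave 0 to 41 higher and 0 lower. After median-ratio scaling 15 were higher (0.1%) and 1 lower (0.00668%). The difference between genotypes was tested by the interaction, the log2 difference in FAN1KO mice minus that in wild-type mice. On TPM it passed for 782 genes with a positive term (5.22%) and 153 with a negative term (1.02%), and on both scales for 344 (2.3%) and 89 (0.594%). The largest positive terms were those of Lcn2 (5.80 ± 0.90, adjusted p 0.0111), Havcr1 (5.53 ± 1.22, adjusted p 0.03), S100a6 (4.64 ± 0.67), Sprr1a (4.54 ± 0.75), Krt20 (4.45 ± 0.77) and Serpina10, a protease inhibitor of coagulation (4.41 ± 0.79). Serpina10 stood at 2.97, 3.95 and 1.04 TPM and 61.1, 53.8 and 51.8 TPM in FAN1KO kidneys and at 19.5, 14 and 7.23 TPM and 2.94, 16.2 and 16.6 TPM in wild-type kidneys, so FAN1KO saline kidneys were below wild-type saline kidneys before any cisplatin. Havcr1 stood at 60.5, 50.3 and 20.4 TPM in wild-type saline and 19.6, 63.2 and 64.9 TPM in wild-type cisplatin kidneys, and 2 of the 3 wild-type saline kidneys lay above all FAN1KO saline kidneys. With each of the 12 libraries left out in turn, the terms of Lcn2, S100a6, Sprr1a, Krt20 and Serpina10 passed every time, while that of Havcr1 missed the threshold in 6 of 12 fits (adjusted p up to 0.0777). With voom on the recovered reads Krt20 and Sprr1a missed it (adjusted p 0.277 and 0.101). Krt20 reached the TPM filter only through the cisplatin kidneys of FAN1KO mice.

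The largest negative terms were those of Hba-a2 (−6.23 ± 1.20), Hba-a1, Hbb-bs and Hbb-b1, Pvalb (−3.68 ± 0.89) and 2310081J21Rik (−2.44 ± 0.46). Hba-a2 stood at 3441, 2639 and 787 TPM in wild-type saline and 1495, 3119.7 and 4415 TPM in wild-type cisplatin kidneys. The terms of 2310081J21Rik and Hbb-bs passed with any library left out, whereas those of Hba-a1, Hba-a2 and Hbb-b1 missed in 1 to 3 of 12 fits (adjusted p up to 0.0586) and that of Pvalb in 10 (up to 0.101). With voom Pvalb, Hbb-bs, Hbb-b1 and Hba-a1 missed (adjusted p 0.0526 to 0.0806). By list, the term was positive on both scales for 16 of 32 tubule injury genes and 4 of 30 p53 targets, against 2.3% of all genes tested. Of the 32, 2 reached the filter only through the cisplatin kidneys of FAN1KO mice, among them Krt20, which favors a positive term. It was negative for 5 of 18 tricarboxylic acid cycle genes, 2 of 8 gluconeogenesis genes and 3 of 38 proximal tubule transport genes, against 0.594% of all genes tested. Of the 9 genes called higher in wild-type mice 7 were members of the p53 list, which was chosen with these results known: Cdkn1a, Phlda3, Gdf15, Ccng1, Sesn2, Plk2 and Aen. The median difference of the p53 list was 1.81 in FAN1KO and 0.89 in wild-type mice, against 0.37 and 0.08 over all genes. Cdkn1a was at 6.88, 9.98 and 8.13 TPM in wild-type saline and 56.8, 99.2 and 169 TPM in wild-type cisplatin kidneys (3.43 ± 0.39, adjusted p 0.0222), and its interaction, 2.13 ± 0.55, passed on TPM (adjusted p 0.0472) and not after scaling (0.0623). Ccng1, a cyclin G target of p53, had differences of 1.68 ± 0.20 in FAN1KO and 1.54 ± 0.20 in wild-type mice (interaction 0.14 ± 0.28, adjusted p 0.798). Slc34a1 was at 2681, 2706 and 2717 TPM and 2776, 2087 and 2476 TPM in wild-type mice and its term was −1.44 ± 0.33 (adjusted p 0.0338 on TPM and 0.0692 after scaling), and that of Lrp2 was −1.38 ± 0.33 (adjusted p 0.039 and 0.0289; it missed in 11 of 12 fits with 1 library left out, at up to 0.0993).

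**Figure D5:**
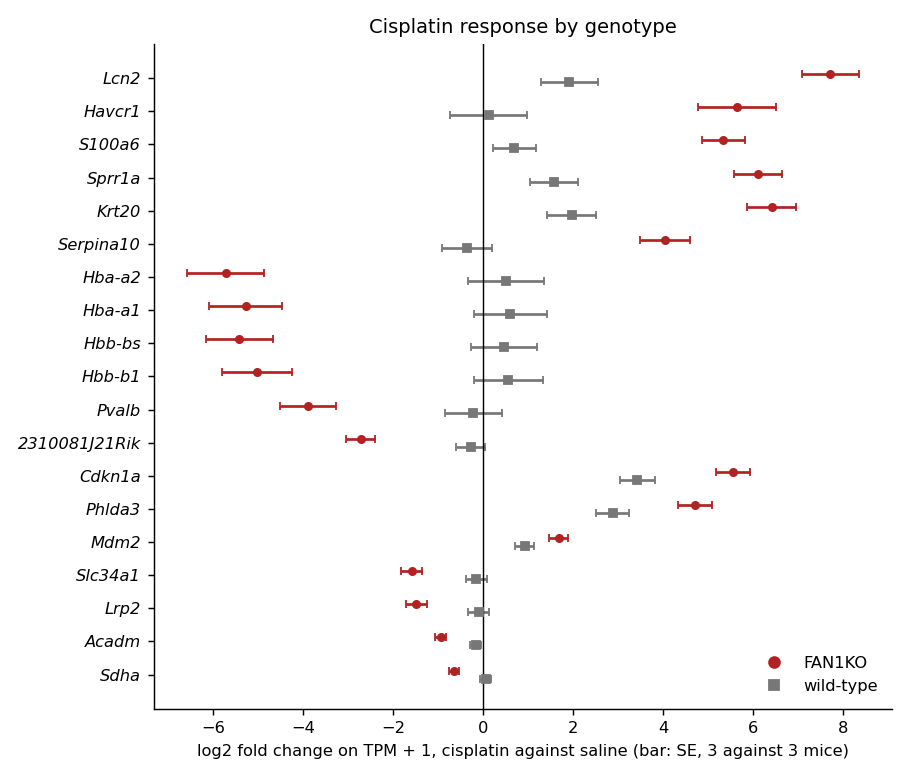
log2 difference of cisplatin against saline kidneys, on TPM + 1, in FAN1KO (circles) and wild-type mice (squares), with standard errors, 3 against 3 mice each, for the genes with the largest interaction terms and for 7 genes described above. Lcn2 stood at 7.72 in FAN1KO and 1.92 in wild-type mice, and Cdkn1a at 5.56 and 3.43.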

How the data were processed

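Total kidney RNA of 12 mice in 4 groups of 3 was sequenced, and the authors deposited 1 table of TPM per gene. The submitters' processing notes name the mm10 build and limma. The aligner, the annotation and the use of strand are not given in the sources used here. Of 27179 gene identifiers 25275 were named by RefSeq (GRCm38.p6) and 1904 were not, and no column of values was left out. All 232991 values above 0 came out as whole reads when divided by a constant per gene and library, which gave 37202154 to 82947582 reads per library. 1 read in a 1 kb transcript was worth 0.02 to 0.0478 TPM.

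Groups were taken from the labels. Each library has a number of its own in the labels and was taken as a separate mouse. Genes with at least 1 TPM in at least 3 libraries (14972) were tested with limma 3.58.1 (R 4.3.3) on log2(TPM + 1), with a mean-variance trend, 4 group means and Benjamini-Hochberg adjustment over all of them at 0.05. Median-ratio scaling divided each library by its median ratio to the geometric mean of the genes. Single values per library were compared by exact two-sided permutation of 3 against 3. The scripts were tested on simulated data. Promoter windows came from RefSeq. Python 3.11.15, numpy 2.4.6, pandas 2.3.3, scipy 1.17.1 and matplotlib 3.10.9 were used.

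The genes and lists were chosen with earlier results of these data known. Named genes were the 12 largest rises and falls that passed on both scales without overlap and with a mean of at least 5 TPM in the higher group, up to 3 members per list in each direction that passed on both scales without overlap, genes and blotted proteins that the study names for mouse kidney, the 6 largest interaction terms of each sign, defining members without a call, and the 5 most abundant genes and the 5 that gained or lost most TPM. Promoter examples, Mdm2, Trp53 and further members were named after their values were seen. A few list members are not reported here. Alternatives were a pseudocount of 0.1, no filter, median-ratio scaling, only the 6 libraries of a comparison, the replicate number as a block, a Y-linked covariate, no trend, mitochondrially encoded genes left out, a fold change of at least 2, and each library left out. Chosen after seeing the data were voom on the recovered reads, only the 8 libraries with Y-linked RNA near 0, and combinations of these or the block with scaling.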

Additional observations from a re-analysis of the deposited data

Results flagged for a closer look

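For 53 named genes the effect of cisplatin differed between the genotypes by the interaction test (limma, Benjamini-Hochberg adjusted p under 0.05 on TPM as deposited and after median-ratio scaling). Many of these genes were named for a large difference in FAN1KO mice or for their interaction term in these same data, so their number is partly set by that choice. Over all genes tested the term was positive on both scales for 2.3% and negative for 0.594%. Values below are the log2 difference in FAN1KO mice minus that in wild-type mice, 30 of them above 0 and 23 below. With each of the 12 libraries left out in turn, 28 of the 53 passed in every fit and 25 missed at least once, and 13 missed with voom on the recovered reads.

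Among tubule injury and epithelial genes the term was 5.80 for Lcn2, 5.53 for Havcr1, 4.64 for S100a6, 4.54 for Sprr1a, 4.45 for Krt20, 3.45 for Krt19, 2.48 for Fgg, 2.36 for Klf5 and 2.17 for Sox9. Havcr1 missed in 6 of the 12 fits with 1 library left out, and the other 8 passed in each. Among p53 targets and genes of cell cycle, arrest and repair it was 2.36 for Bbc3, 2.26 for Gdf15, 1.62 for Eda2r, 1.09 for Trp53, 2.36 for Cdkn2b, 2.15 for Chaf1b, 1.88 for Uhrf1 and 1.54 for Ercc1. Eda2r missed in 10 of the 12 fits, Cdkn2b in 8, Ercc1 in 6 and Chaf1b in 2, and the other 4 passed in each.

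Among immune and signaling genes the term was 4.41 for Serpina10, 4.03 for C3, 2.52 for Csf1, 2.01 for Icam1, 1.95 for Relb, 1.61 for Nfkb2, 1.57 for Ripk3, 1.91 for Atf3 and 1.88 for Areg. Csf1 and Ripk3 missed in 10 of the 12 fits, Atf3 in 8, Relb and Nfkb2 in 6 and Icam1 in 5, and Serpina10, C3 and Areg passed in each. Among metabolic genes it was 2.42 for Phgdh, 1.83 for Asns, 1.60 for Trib3 and 1.49 for Hk2. Hk2 missed in 9 of the 12 fits, Trib3 in 7 and Asns in 2, and Phgdh passed in each. Krt20, Ripk3, Areg and Hk2 reached the TPM filter only through the cisplatin kidneys of FAN1KO mice.

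The negative terms of the red cell genes were −6.23 for Hba-a2, −5.89 for Hba-a1, −5.88 for Hbb-bs and −5.59 for Hbb-b1. Hba-a1 missed in 3 of the 12 fits, Hbb-b1 in 2 and Hba-a2 in 1, and Hbb-bs passed in each. In the proximal tubule the term was −2.24 for Acmsd, −2.06 for G6pc, −1.96 for Slc34a3, −1.65 for Dpep1, −1.59 for Slc13a3, −1.38 for Lrp2 and −1.10 for Fbp1. Lrp2 missed in 11 of the 12 fits and Slc34a3 in 7, and the other 5 passed in each. In the distal nephron and among hormones and growth factors it was −3.68 for Pvalb, −2.11 for Egf, −1.37 for Kl and −0.81 for Vegfa. 2310081J21Rik, a gene with no role given here, stood at −2.44. Pvalb missed in 10 of the 12 fits, Egf in 9 and Vegfa in 7, and Kl and 2310081J21Rik passed in each. Among mitochondrial and peroxisomal genes the terms were −1.04 for Cat, −0.78 for Acadm, −0.78 for Ndufs1, −0.70 for Sdha, −0.70 for Sod2, −0.67 for Dld and −0.66 for Uqcrc2. Acadm and Sdha missed in 10 of the 12 fits and Uqcrc2 in 6, and Cat, Ndufs1, Sod2 and Dld passed in each.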

How the results depend on the processing

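With 3 mice a group an exact permutation test cannot pass 0.05, so calls rest on limma's pooled spread. Counts are genes higher and lower in FAN1KO mice, then in wild-type mice, then positive and negative interaction terms. The values above were 5229 and 733, 9 and 0, and 782 and 153. Median-ratio scaling gave 2333 and 2047, 15 and 1, and 374 and 184. The pseudocount of 0.1 gave 13 wild-type genes higher. Only the 6 libraries of a comparison gave 0 higher in wild-type mice. A Y-linked covariate gave 7919 and 1222, 57 and 1, and 4088 and 646. Without mitochondrially encoded genes the counts were 3742 and 909, 14 and 0, and 449 and 150. A fold change of at least 2 gave 1801 and 198, 8 and 0, and 456 and 79. Voom with scaling gave 2209 and 2029, 7 and 0, and 177 and 112. The 8 libraries with Y-linked RNA near 0 gave 6647 and 1256, 60 and 3, and 2004 and 434, and with scaling 3038 and 3144, 31 and 0, and 736 and 806. With each library left out the ranges were 3140 to 5607 and 482 to 786, 0 to 41 and 0 to 0, and 217 to 981 and 51 to 216. The cause of these moves was not tested.

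Replicate numbers name different mice. Saline and cisplatin libraries of the same number had deviations correlated at −0.375, 0.253 and −0.308 over genes. Saline replicate 1 and cisplatin replicate 3, the libraries with Y-linked RNA, gave 0.526. These values do not decide whether the numbers mark a pairing, and samples were not paired by them. The replicate block gave 4798 and 672, 0 and 0, and 351 and 73, and with scaling the block gave 2133 and 1838, 4 and 0, and 156 and 46. Of the 53 named interaction terms that differed between genotypes, 16 missed the threshold with the block, among them Havcr1 (adjusted p 0.0548), Acadm (0.0525) and Sdha (0.0543).

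Medians of 18 of the lists were followed through the alternatives, and those of the other lists and marker sets were not. Of the resulting 449 list medians, taken less the median of all genes, 445 moved by less than the spread between replicates. The exceptions were the NF-kB response (1.87) and complement (1.49) with voom, and the tricarboxylic acid cycle (−0.75) and complexes II to V (−0.33) without a filter. Log2 differences that changed sign were those of named genes without a call. With median-ratio scaling, alone or with the replicate block, they came to −0.14 for Acadvl, −0.28 for Acta2, −0.27 for Cox4i1, −0.32 for Cpt1a, −0.33 for Csf1r, −0.017 for Il1b and −0.22 for Ndufb8. With scaled voom they came to −0.15 for Acadvl, −0.28 for Acta2, −0.26 for Cox4i1, −0.32 for Cpt1a, −0.34 for Csf1r and −0.22 for Ndufb8. Without mitochondrially encoded genes Cpt1a stood at −0.019 and Csf1r at −0.041. In the libraries with Y-linked RNA near 0, Rrm2b stood at 0.035 and Slc12a3 at 0.19, and after scaling Acta2 at −0.30, Cox4i1 at −0.35, Cpt1a at −0.16, Csf1r at −0.34, Il1b at −0.20, Ndufb8 at −0.21, Prom1 at −0.17 and Sesn1 at −0.029. The interaction of Ccng1 stood at −0.20 after scaling, with or without the block, and at −0.21 with scaled voom. With 1 library left out, differences ranged from −0.20 to 0.99 for Acadvl, −0.074 to 0.36 for Acta2, −0.15 to 0.49 for Csf1r, −0.059 to 0.42 for Il1b, −0.97 to 0.22 for Nphs1, −0.28 to 0.083 for Ppargc1a, −0.10 to 0.016 for Rrm2b, −0.94 to 0.16 for Slc12a1, −0.34 to 0.35 for Slc12a3, −0.42 to 0.07 for Umod, and −0.017 to 0.32 for the interaction of Ccng1.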

Other observations

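Among the genes that gained most TPM in FAN1KO kidneys after cisplatin was Ctsd, the lysosomal protease cathepsin D, at 687, 552 and 595 TPM under saline and 2345, 1868 and 1476 TPM under cisplatin (log2 difference 1.61 ± 0.16, adjusted p 0.000131 by limma). Wild-type kidneys held 545, 549.6 and 539 TPM of Ctsd under saline and 548, 617 and 641 TPM under cisplatin, and its interaction was 1.47 (adjusted p 0.0109 on TPM and 0.0437 after scaling). Gpx3, the secreted glutathione peroxidase and one of the 5 genes that lost most TPM, stood at 27657, 25328 and 30138 TPM and then at 18025, 20522 and 19634 TPM, without overlap, and missed the threshold on TPM (−0.51 ± 0.23, adjusted p 0.102). The mitochondrial mRNAs CYTB (22060.1, 24563 and 26677 TPM, then 9945, 13597 and 18495 TPM) and COX3 (18288, 21108 and 20405 TPM, then 9485, 12424 and 16107 TPM) were lowest in cisplatin replicate 1. Mir682 and Gm11478 also gained, at 1882, 2825 and 2900.1 TPM and 1244, 1703 and 1484 TPM under saline and at 4984, 4976 and 3939 TPM and 3619, 2691 and 2992 TPM under cisplatin. Their annotated spans overlap Gm4149 and Vmp1, so reads of the partners may have been counted in them.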
